A study of Mus musculus with 10 samples.

Results

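Expression of 10 genes that move calcium into and out of the sarcoplasmic reticulum was examined in gastrocnemius muscle of D257A and wild-type (WT) mice. The genes were chosen by name: the small pump regulators Sln and Pln, the calcium pumps Atp2a1 and Atp2a2, the release channel Ryr1 with its voltage sensor Cacna1s and the junction protein Jph2, and the calcium-binding proteins Casq1, Casq2 and Pvalb. Every probe set of the array that maps to exactly 1 of these symbols was taken, which gave 20 probe sets of the 45037 on the array, and 10 of the 18193 genes that it names. D257A mice are homozygous for a knock-in mutation that removes the proofreading activity of the mitochondrial DNA polymerase gamma, encoded by Polg, in every tissue, and they accumulate mitochondrial DNA mutations. WT mice carried 2 normal Polg alleles. Each group held 5 male mice aged 13 months, with 1 Affymetrix Mouse Genome 430 2.0 array per mouse, and all 10 mice were on a mixed background backcrossed to C57BL/6J. The comparison asks which genes are expressed differently in skeletal muscle that carries a high load of mitochondrial DNA mutations. Mice are named below by their labels (for example 2-17M).

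In skeletal muscle, depolarisation of the transverse tubule moves the voltage sensor, which opens the ryanodine receptor of the facing sarcoplasmic reticulum and lets calcium flow to the myofilaments. Relaxation follows when the sarco/endoplasmic reticulum calcium ATPases (SERCA pumps) return calcium to the lumen, where calsequestrin binds it, while parvalbumin takes up calcium in the cytosol of fast fibers. Sarcolipin and phospholamban are small membrane proteins that bind the pumps and restrain them. Sarcolipin makes the pump spend ATP with less calcium transported, and in the mouse it is abundant in the atria and sparse in adult fast limb muscle.

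Signals are given after each array was scaled to a trimmed mean of 500 and have no absolute unit, so genotypes were compared for 1 probe set at a time. Exceptions were the checks of tissue and cell type, which set or summed the signals of several probe sets as a rough guide. The others were the differences within pairs of genes and the search for genes like Sln, both described without a test. A log2 fold change is the D257A mean minus the WT mean of log2 signals, with its standard error (SE) and unadjusted 95% confidence interval from limma, and a gene was called where its p adjusted over all 22518 probe sets tested was under 0.05. Those tested were the brighter part of the array, with a mean log2 signal of at least 6.265. Before scaling, the trimmed mean of the deposited signals was 93.5 to 106 in D257A mice, against 94.5 to 129 in WT mice. The WT mouse 1-13M had the highest value, and it stood apart from the other WT mice in several genes described below. Results that rest on it are therefore given with and without it. Without it, 7.32% of all probe sets tested were called higher and 7.90% lower, against 3.64% and 3.74% with all mice. All 8 skeletal muscle markers were brighter than at least 99.5% of probe sets. Cochlear markers were examined because a protocol line in the labels names the cochlea, and 7 of 9 lay below the filter. The filter is the median mean signal of the array and not a detection call. The mutation in Polg leads to a residue substitution, which the probe sets for Polg are not designed to report. The brightest of them differed by 0.09 on the log2 scale (adjusted p = 0.768). As in any whole-tissue RNA, fewer cells of a type and less RNA per cell cannot be told apart.

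Of the 10 genes, sarcolipin alone was called. Its signal was 8.91-fold higher in D257A than in WT muscle, while none of the other 9 genes, which encode phospholamban, the pumps, the release machinery and the calcium-binding proteins, passed the test. Of the 20 probe sets, 18 passed the filter on dim signals, 1 was called higher and 0 were called lower. Over all probe sets tested, 7.38% were called, 3.64% higher and 3.74% lower in D257A. At an unadjusted p under 0.05, 3 of the 18 were higher and 2 were lower, where 10.7% and 12.9% of all probe sets tested were. By the methods' t-test on log2 signals, 2 were higher and 1 lower at the study's unadjusted threshold, which 22.2% of all probe sets passed, and 1 and 0 after Benjamini-Hochberg adjustment, which 4.59% passed. The median log2 fold change of the 10 genes, each represented by its brightest probe set, was 0.06, against -0.03 for all probe sets tested.

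Sln (probe set 1420884_at; chromosome 9, 53850251 to 53853849 in GRCm38.p6) encodes sarcolipin. Its signal was 5036, 4437, 5200, 2438 and 2636 in D257A mice 2-17M, 2-21M, 2-25M, 2-27M and 2-30M, against 372, 691, 445, 372 and 313 in WT mice 1-12M, 1-13M, 2-3M, 2-32M and 3-18M. All D257A mice lay above all WT mice, as they did in 3.94% of the probe sets tested, while 3.77% had all D257A mice below all WT mice and 7.71% were apart in either direction. Among the D257A mice, 2 had near the same lower signal and the other 3 a higher one, and even the lowest D257A signal was well above the highest WT signal, that of 1-13M. The means were 3949 ± 1322 in D257A mice, against 438 ± 149 in WT mice (SD, n = 5 each). The log2 fold change was 3.16 (SE 0.25, 95% confidence interval 2.62 to 3.69, adjusted p = 1.95e-05), which is 8.91-fold with an interval of 6.14 to 12.9. Without mouse 1-13M the log2 fold change was 3.33 (adjusted p = 9.66e-07).

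A second Sln probe set, 1420883_at, lay below the filter in both genotypes. Its signal averaged 41.5 ± 27.7 in D257A mice, against 21.4 ± 20.0 in WT mice (SD, n = 5 each), and the groups overlapped. Tested without the filter it was not called (adjusted p = 0.527). The statement on Sln therefore rests on 1 probe set.

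**Figure D1:**
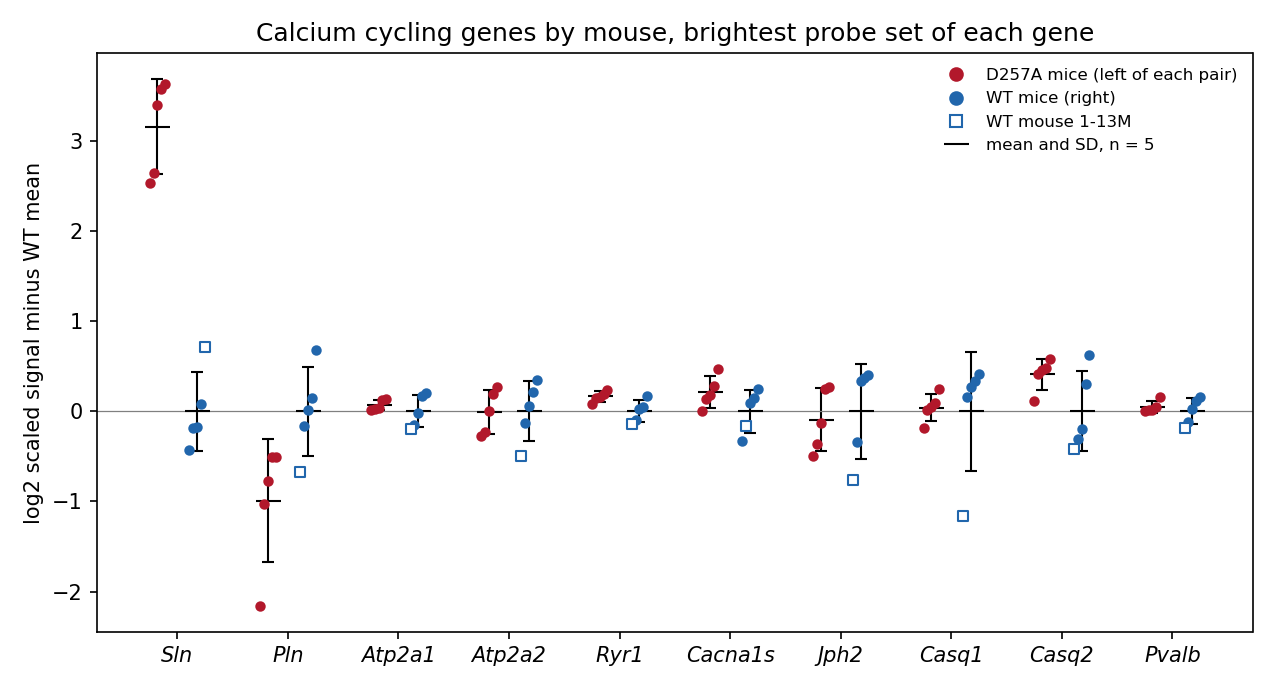
Signal of each mouse for the brightest probe set of each of the 10 genes, as log2 scaled signal minus the WT mean of that gene, with D257A mice left and WT mice right; bars are mean and SD (n = 5 each) and the open square is WT mouse 1-13M. Sln is separated between the genotypes by 3.16 on average, and the mice of every other gene overlap.

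Sarcolipin is also an atrial gene, so heart markers were read beside it. The summed signal of the 7 heart markers was 1362 to 2015 in D257A mice, against 842 to 1229 in WT mice. The brightest part of this sum was Myl4, an atrial light chain that embryonic skeletal muscle also makes, which rose by 1.15 on the log2 scale in D257A mice (1483 ± 255 in D257A and 671 ± 145 in WT, SD, n = 5 each; adjusted p = 0.00212). The atrial markers Nppa and Myl7 averaged 15.4 and 28.7 in D257A mice, against 35.9 and 48.5 in WT mice, and both lay below the filter together with Nppb, Myh6 and Tnni3. Without Myl4, the sum over the remaining 6 heart markers was 298 to 354 in D257A mice, against 360 to 537 in WT mice.

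Other cell types also differed in places. Among macrophage markers, Lyz2 and Cd163 were called higher, 2 of 5, and the sum was 5891 to 9157 in D257A mice, against 4976 to 6412 in WT mice. Leaving out 2-17M, 2-25M, 2-30M, 1-12M, 2-32M and 3-18M, each in turn, ended the call of Lyz2 (adjusted p = 0.0761 to 0.112), and leaving out 2-30M, 1-12M and 2-3M in turn ended that of Cd163 (0.0511 to 0.0594). Among fibroblast markers, the collagens Col1a1, Col1a2 and Col3a1 were called lower, 3 of 5, and the sum was 19430 to 22696 in D257A mice, against 19915 to 31560 in WT mice. The lowest WT sum was that of 1-13M, and the other 4 WT mice, at 24803 to 31560, lay above all D257A mice. Leaving out 1-12M, 2-3M, 2-32M and 3-18M, each in turn, ended the call of Col1a1 (adjusted p = 0.0569 to 0.077), and these together with 2-17M and 2-30M, again singly, ended that of Col3a1 (0.0517 to 0.0695). In endothelium 1 of 5 markers, Vwf, was called higher, with sums of 3260 to 4460 in D257A mice, against 2971 to 3959 in WT mice. None of the tested markers of smooth muscle, adipocytes, Schwann cells, satellite cells or skeletal muscle was called with all mice. Without 1-13M, the smooth muscle markers Smtn and Acta2 (adjusted p = 0.0029 and 0.0383), the adipocyte marker Lep (0.0174) and the heart marker Tnnt2 (0.0365) were called lower. Without that mouse, 7.90% of all probe sets tested were called lower. The part of these cell types in the results was not tested.

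Pln (chromosome 10, 53337686 to 53345999) encodes phospholamban, the restraint on the cardiac and slow-muscle pump. Its brightest probe set, 1450952_at, had signals of 56.7, 177, 148, 124 and 179 in D257A mice, against 406, 158, 226, 279 and 255 in WT mice. The genotypes overlapped through WT mouse 1-13M, whose signal of 158 lay within the D257A range. The log2 fold change was -0.99 (SE 0.32, interval -1.68 to -0.31), and it did not pass the threshold (adjusted p = 0.0752). Without mouse 1-13M it was -1.16 and passed (adjusted p = 0.0206). Without that mouse 7.90% of all probe sets tested were called lower.

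The other Pln probe sets were not called. For 1423359_at the log2 fold change was 0.05 (SE 0.34, adjusted p = 0.944), with signals of 120 to 208 in D257A mice, against 61.1 to 269 in WT mice. For 1460332_at it was -0.19 (SE 0.19, adjusted p = 0.574), with 125 to 174 in D257A mice, against 124 to 208 in WT mice. Without 1-13M they were at -0.31 each, and neither was called (adjusted p = 0.368 and 0.255). The differences between the 3 Pln probe sets were not tested.

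Atp2a1 (chromosome 7, 126445858 to 126463103) encodes SERCA1, the calcium pump of fast fibers. Its signal was 55362, 52131, 51287, 51610 and 55952 in D257A mice, against 58170, 44396, 50153, 45656 and 56960 in WT mice. The D257A mice lay within the WT range. The log2 fold change of the scaled signals was 0.07 (SE 0.08, interval -0.11 to 0.25, adjusted p = 0.671). Before scaling, the signals were 10457 to 11484 in D257A mice, against 10594 to 11428 in WT mice. The deposited signals were 76.6 to 86.2% of the brightest signal on the same array, and whether the array still responds in proportion there was not tested.

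Atp2a2 (chromosome 5, 122453513 to 122502225) encodes SERCA2, the pump of slow fibers and of the heart. Its brightest probe set had signals of 12879, 17224, 18114, 12436 and 15077 in D257A mice, against 17520, 10691, 13826, 19247 and 15660 in WT mice. The D257A mice lay inside the wider range of the WT mice, and the log2 fold change was -0.01 (SE 0.15, interval -0.34 to 0.32, adjusted p = 0.978). The 4 other tested probe sets of Atp2a2 had log2 fold changes of 0.11 to 0.25 and adjusted p of 0.459 to 0.768. A further one, 1443551_at, lay below the filter, with means of 32.1 in D257A mice, against 29.6 in WT mice.

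**Figure D2:**
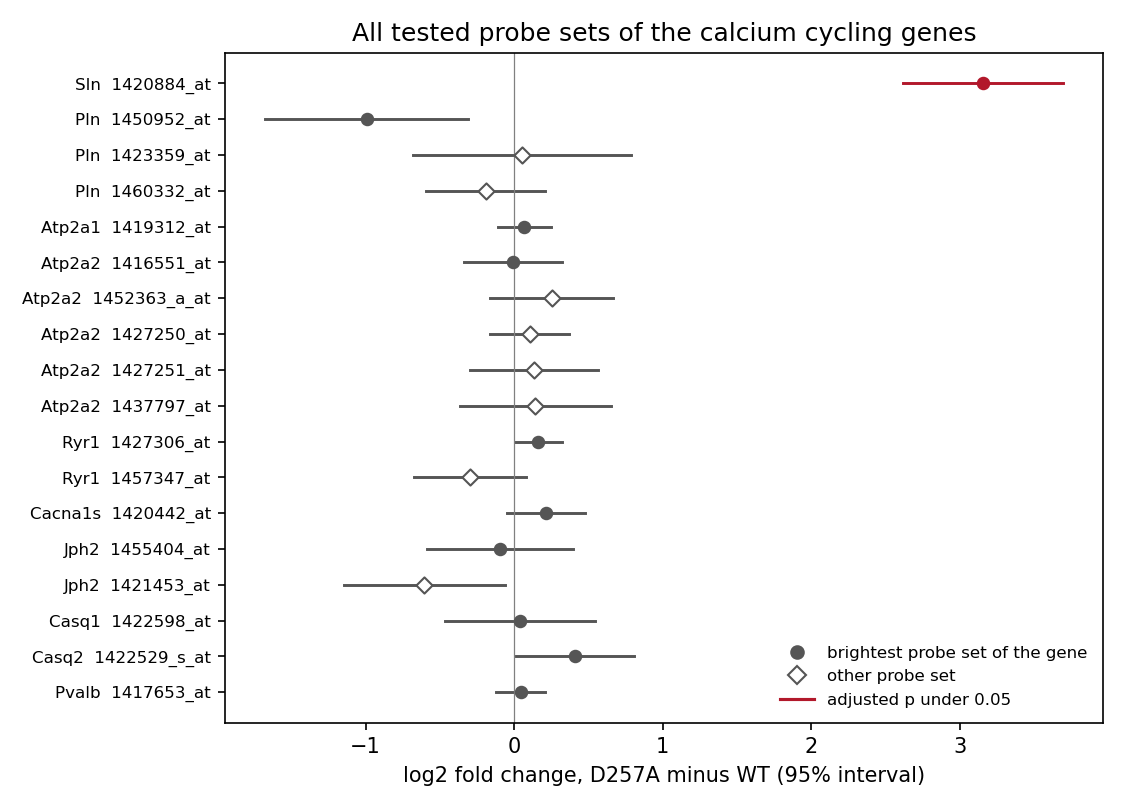
Log2 fold change (D257A minus WT) of the 18 tested probe sets of the 10 genes, with 95% confidence intervals. The interval of Sln, 2.62 to 3.69, lies apart from those of all other probe sets, and the estimates for probe sets of Pln, Ryr1 and Jph2 are spread, with intervals that overlap within each gene.

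Ryr1 (chromosome 7, 29003340 to 29125179) encodes the calcium release channel. Its brightest probe set, 1427306_at, had signals of 40990, 42807, 43278, 44224 and 45739 in D257A mice, against 43457, 35180, 39908, 36239 and 39316 in WT mice. In 4 of the 5 WT mice the scaled signal was below that of every D257A mouse, and WT mouse 1-12M lay within the D257A range. The means were 43408 ± 1755 in D257A mice, against 38820 ± 3273 in WT mice (SD, n = 5 each), a log2 fold change of 0.16 (SE 0.07, interval 0.01 to 0.32) that was not called (adjusted p = 0.186). With arrays centred on their median it was 0.30 and called (adjusted p = 0.0276), a scaling under which the median of all probe sets tested was 0.10 rather than -0.03. Without scaling it was 0.09 and not called (adjusted p = 0.467). The deposited signals were 8503 to 9097 in D257A mice, against 7432 to 9056 in WT mice, with the highest WT value in 1-13M. They were 57.1 to 67.1% of the brightest signal on the same array. The second probe set, 1457347_at, had the opposite sign (-0.30, SE 0.18, adjusted p = 0.331).

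Cacna1s (chromosome 1, 136052806 to 136119822) encodes the pore and voltage sensor of the dihydropyridine receptor. Its signal was 8790, 9416, 8574, 10784 and 7809 in D257A mice, against 8300, 6951, 8597, 9259 and 6202 in WT mice. The ranges overlapped, and the log2 fold change of 0.21 (SE 0.12, interval -0.05 to 0.48) was not called (adjusted p = 0.32).

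Jph2 (chromosome 2, 163336242 to 163398049) encodes junctophilin 2, which ties the sarcoplasmic reticulum to the transverse tubule. Its brightest probe set, 1455404_at, had signals of 2555, 3962, 2999, 3894 and 2330 in D257A mice, against 4154, 1937, 4337, 4222 and 2590 in WT mice, with a log2 fold change of -0.09 (SE 0.23, adjusted p = 0.845). The dimmer 1421453_at had 251, 429, 367, 507 and 280 in D257A mice, against 698, 295, 533, 722 and 571 in WT mice. In that probe set 4 WT mice lay above all D257A mice and 1-13M lay among them. Its log2 fold change was -0.60 (SE 0.25, interval -1.14 to -0.06, adjusted p = 0.162), and without 1-13M it was -0.82 and called (adjusted p = 0.0129).

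Casq1 (chromosome 1, 172209894 to 172219895) encodes calsequestrin 1, the main calcium store protein of fast fibers. Its signal was 28955, 30553, 29635, 34088 and 25367 in D257A mice, against 38311, 12839, 34546, 32082 and 36264 in WT mice. Mouse 1-13M had less than any other mouse of either genotype, and the other 4 WT mice overlapped the D257A range only in part. The log2 fold change was 0.04 (SE 0.24, adjusted p = 0.943) with 1-13M and -0.25 without it (adjusted p = 0.0613), so its direction turned when that array was left out.

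Casq2 (chromosome 3, 102086415 to 102146514) encodes calsequestrin 2, the cardiac and slow-fiber form. Its signal was 2457, 2341, 2628, 2411 and 1908 in D257A mice, against 2701, 1311, 1539, 2175 and 1420 in WT mice. The highest signal was that of a WT mouse, 1-12M, while 3 WT mice lay below all D257A mice. The log2 fold change was 0.41 (SE 0.18, interval 0.01 to 0.81), which was not called (adjusted p = 0.197).

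Pvalb (chromosome 15, 78191112 to 78206400) encodes parvalbumin, the soluble calcium buffer of fast fibers. Its signal was 50452, 51779, 50104, 50600 and 55861 in D257A mice, against 55859, 44128, 51073, 46286 and 54286 in WT mice. The genotypes overlapped, and the log2 fold change was 0.05 (SE 0.08, adjusted p = 0.77). These signals were 75.1 to 82.0% of the brightest deposited signal on the same array.

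Paired genes were then read within each mouse, as the log2 signal of a regulator or slow form minus that of its pump or fast form, set relative to the WT mean of that difference. These values describe unequal change and were not tested. For Sln minus Atp2a1 the values were 3.45, 3.36, 3.61, 2.51 and 2.50 in D257A mice, against -0.38, 0.91, 0.10, -0.03 and -0.60 in WT mice. The genotypes did not overlap, and the mean difference of 3.09 lay near that of Sln itself because Atp2a1 varied little. For Pln minus Atp2a2 the values were -1.93, -0.70, -1.03, -0.75 and -0.50 in D257A mice, against 0.47, -0.18, -0.04, -0.21 and -0.04 in WT mice. These too did not overlap, with a mean difference of -0.98, and here 1-13M lay with the other WT mice because its Pln and Atp2a2 signals were both low. This separation rests on Pln probe set 1450952_at, and the other Pln probe sets, described above, had log2 fold changes of 0.05 and -0.19. By itself 1450952_at overlapped between the genotypes and was not called (adjusted p = 0.0752). Of single probe sets tested, 7.71% were apart in either direction, and how often other pairs are apart was not examined.

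The balance of slow to fast forms differed less. Atp2a2 minus Atp2a1 spanned -0.35 to 0.25 in D257A mice, against -0.30 to 0.50 in WT mice, and the mean difference was -0.08. Casq2 minus Casq1 spanned 0.21 to 0.54 in D257A mice, against -0.64 to 0.74 in WT mice, and the mean difference was 0.37. In both pairs the D257A range lay inside the WT range or overlapped it.

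**Figure D3:**
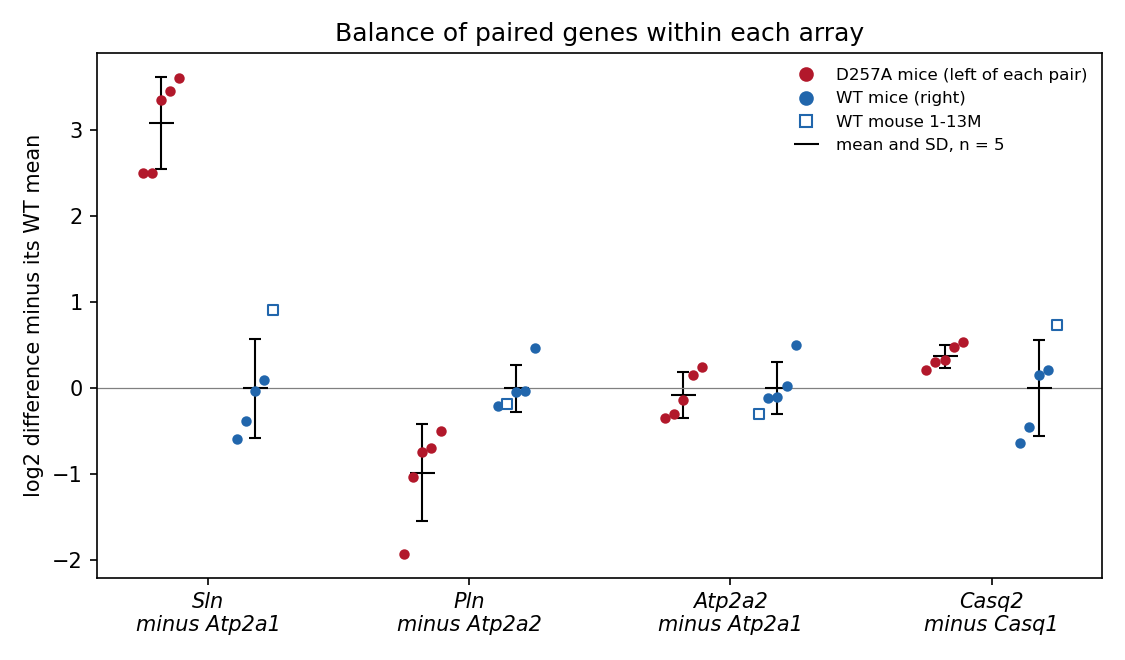
Difference of log2 signals within each mouse between a regulator or slow form and its pump or fast form, relative to the WT mean of each pair, with D257A mice left and WT mice right; bars are mean and SD (n = 5 each). Sln minus Atp2a1 is higher by 3.09 and Pln (probe set 1450952_at) minus Atp2a2 differs by -0.98 with no overlap, while the other pairs overlap.

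The proteins that surround the release channel were examined as a list of 24 genes. Of these, 22 were tested, 3 were called higher and 1 lower, with a median log2 fold change of 0.03. Over all probe sets tested, 3.64% were called higher and 3.74% lower, and these shares also stand beside the lists below. The 3 higher genes were the auxiliary subunits of the voltage sensor, whose pore subunit Cacna1s was not called. Cacng1, the gamma subunit, had signals of 10179, 10644, 10514, 10135 and 10020 in D257A mice, against 6134, 6130, 8005, 6006 and 5708 in WT mice. All D257A mice lay above all WT mice and close to each other (log2 fold change 0.70, SE 0.10, adjusted p = 0.00133).

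Cacna2d1, the alpha2-delta subunit, had 14675, 15432, 14684, 14709 and 14278 in D257A mice, against 10885, 10441, 10414, 11029 and 11542 in WT mice. Here too the genotypes were apart (log2 fold change 0.44, SE 0.07, adjusted p = 0.00314). Cacnb1, the beta subunit, had 3343, 3698, 3589, 5063 and 2916 in D257A mice, against 2478, 1293, 2641, 2627 and 1763 in WT mice. Its log2 fold change was 0.81 (SE 0.20, adjusted p = 0.0271), and the call was lost in 10 of 22 alternative settings, among them the methods' t-test on log2 signals (adjusted p = 0.102) and the fit without any 1 of 4 D257A mice (adjusted p = 0.0534 to 0.0626) or without WT mouse 3-18M (adjusted p = 0.0528).

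The lower gene was Homer2, a scaffold protein of the junction. Its signal was 893, 1280, 1100, 1039 and 905 in D257A mice, against 2220, 1273, 1996, 1817 and 1836 in WT mice. The overlap came from WT mouse 1-13M alone, and the log2 fold change was -0.80 (SE 0.16, adjusted p = 0.00847), a call lost with mice blocked by the first digit of their number (adjusted p = 0.0532). The other 18 tested genes of the list, which include junctophilin 1 (Jph1) and triadin (Trdn), were not called. Without 1-13M the list counted 3 higher and 3 lower, where 7.32% and 7.90% of all probe sets tested were. The added lower genes were Srl (adjusted p = 0.0073) and Stac3 (0.0207).

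**Figure D4:**
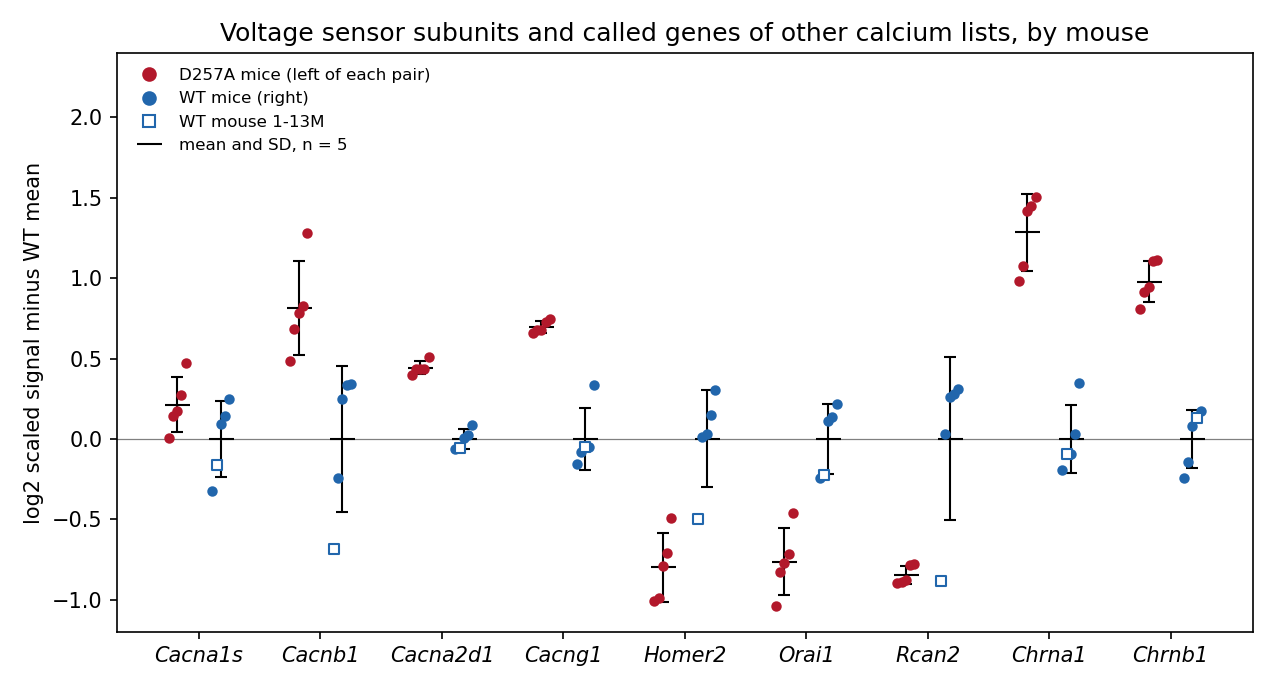
Signal of each mouse as log2 scaled signal minus the WT mean for the voltage sensor subunits and for called genes of the calcium and denervation lists, with D257A mice left and WT mice right; bars are mean and SD (n = 5 each) and the open square is WT mouse 1-13M. Cacnb1, Cacna2d1 and Cacng1 lie higher in D257A mice without overlap, and Cacna1s overlaps. Orai1 lies lower without overlap, and Homer2 and Rcan2 lie lower with an overlap through 1-13M.

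Further regulators of the pumps held 9 genes, of which 6 were tested and 0 were called in either direction, with a median log2 fold change of -0.09. Among them Mrln, which encodes the SERCA inhibitor myoregulin and was singled out after its values were seen, had 5875 ± 563 in D257A mice, against 3913 ± 1263 in WT mice (SD, n = 5 each). Its log2 fold change of 0.66 was not called (adjusted p = 0.0825), and without 1-13M it was 0.41 and called (adjusted p = 0.0207).

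Store-operated calcium entry refills the stores from outside the fiber, and of its 10 genes 6 were tested and 1 was called. This was Orai1, the pore of the entry channel, with 612, 663, 637, 790 and 530 in D257A mice, against 1266, 930, 1176, 1196 and 919 in WT mice. All D257A mice lay below all WT mice (log2 fold change -0.76, SE 0.14, adjusted p = 0.00637). Its luminal sensor Stim1 was not called (-0.07, adjusted p = 0.838).

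Calcium extrusion through the cell membrane (3 of 7 genes tested) and mitochondrial calcium handling (8 of 10) held 0 called genes, with median log2 fold changes of 0.32 and -0.17. Without 1-13M, 1 extrusion gene was called higher and 2 mitochondrial genes lower, where 7.32% and 7.90% of all probe sets tested were. Calmodulin, calcineurin and NFAT signalling held 19 genes, of which 15 were tested and 1 was called lower. It was Rcan2, a regulator of calcineurin, with 2153, 2176, 2334, 2164 and 2325 in D257A mice, against 4971, 2171, 4091, 4807 and 4869 in WT mice. Mouse 1-13M had the D257A level, and the log2 fold change was -0.85 with it (SE 0.19, adjusted p = 0.0181) and -1.07 without it (adjusted p = 1.06e-05). Without 1-13M the list counted 0 higher and 2 lower, S100a1 being the other, where 7.32% and 7.90% of all probe sets tested were.

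Since pump and calsequestrin forms follow fiber type, contractile genes were read beside them. Of 11 fast contractile genes, 0 were called, with a median log2 fold change of 0.05. Of 10 slow contractile genes, 0 were called higher and 2 lower, with a median of 0.20. The 2 were not myosins or troponins but the Z-disc genes Csrp3 and Actn2, and without 1-13M they were joined by 1 higher gene, Tpm3 (slow tropomyosin; 0.55, adjusted p = 0.0478). Csrp3, which encodes muscle LIM protein, averaged 11702 ± 4374 in D257A mice, against 27981 ± 5935 in WT mice (SD, n = 5 each; log2 fold change -1.33, SE 0.24, adjusted p = 0.00497), a call lost under the same block (adjusted p = 0.0779). Actn2, which encodes alpha-actinin 2, averaged 18010 ± 1115 in D257A mice, against 26422 ± 3044 in WT mice (SD, n = 5 each; -0.55, SE 0.09, adjusted p = 0.00349).

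Genes known to rise in denervated or regenerating muscle formed a list of 13, of which 10 were tested, 2 were called higher and 0 lower, with a median of 0.12. Both were acetylcholine receptor subunits. The log2 fold changes of the 10 tested genes were positive in 5 and negative in 5, the lowest being -0.50. Without 1-13M another gene was called higher, the growth arrest gene Gadd45a, where 7.32% of all probe sets tested were. Its log2 fold change was 1.35 with that mouse (adjusted p = 0.107) and 1.90 without it (adjusted p = 3.77e-04). Mouse 1-13M had a Gadd45a signal of 5854, within the D257A range of 1887 to 6134, while the lowest WT signal was 639. Chrna1 had 1673, 1579, 1609, 1246 and 1166 in D257A mice, against 753, 553, 603, 554 and 517 in WT mice (log2 fold change 1.28, SE 0.15, adjusted p = 4.31e-04). Chrnb1 had 2250, 2004, 1961, 2235 and 1823 in D257A mice, against 1099, 1136, 941, 1173 and 880 in WT mice (0.98, SE 0.12, adjusted p = 6.21e-04). In both, all D257A mice lay above all WT mice, while Myog, the myogenic regulator of these receptors, was not called (0.33, adjusted p = 0.46).

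The genes whose pattern over the 10 mice was most like that of Sln were found by the root mean square difference of log2 signals after centring each probe set on its own mean. Aacs, which encodes acetoacetyl-CoA synthetase, was closest with 0.43, followed by Fam174b with 0.51, Hddc3 with 0.52, Igfbp3, a binding protein of insulin-like growth factors, with 0.66, and the arrestin-domain gene Arrdc4 with 0.69. The root mean square of Sln around its own mean was 1.64. All 5 genes had their D257A mice above their WT mice, with log2 fold changes of 2.87, 2.34, 3.32, 2.10 and 2.01 in that order. They were chosen for this likeness, so the values describe them and were not tested. Whether any of these 5 genes lies near Polg, in sequence linked to the knock-in allele, was not examined.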

How the data were processed

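The authors deposited a linear signal intensity per probe set for each array, made with GCOS 1.3 per the labels. The study's methods name a scaling to 500 that the deposited values do not show, so each array was scaled here to a trimmed mean of 500 (2% left out at each end) and log2 was taken. Control probe sets (64 of 45101) were left out. Probe sets above the median mean signal (22518) entered the fit in limma 3.58.1 under R 4.3.3 (lmFit, then eBayes with a mean-variance trend, all 10 mice, Benjamini-Hochberg), and the script was tested on simulated data. Symbols came from the platform annotation (34945 probe sets with 1 symbol, 932 with several, 9160 with none) and positions from RefSeq on GRCm38.p6. Alternatives were another scaling, filter, offset or variance model, array weights, the methods' t-test, the leading digit of the mouse number, and each mouse left out. Named were the 10 genes, up to 4 called genes per list by smallest adjusted p, and the 5 genes most like Sln; Mrln, Stim1, Myog, Jph1, Trdn, and genes called only without mouse 1-13M, were named outside this rule, after their values were seen. Genes and lists were chosen with earlier results of these data known. Tissue and sex follow the labels, although 1 protocol line names the cochlea and the study's methods name both sexes. The number of arrays limits the precision.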

Additional observations from a re-analysis of the deposited data

Results flagged for a closer look

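Single mice that lay apart were sought in 66 groups of 5 mice, over 33 of the probe sets described in the text. In 4 groups, 1 mouse lay farther from the rest than Dixon's critical value of 0.71. The ratio is the gap divided by the range, taken on log2 signals. Chance gives about 1 in 20 such groups. Other probe sets described in the text were not screened. Casq1 had a ratio of 0.838 in WT mice, where 1-13M had a signal of 12840 and the other 4 had 32080 to 38310. Rcan2 had 0.765 in WT mice, where the same mouse had 2171 and the others 4091 to 4971. The Atp2a2 probe set 1427250_at had 0.819 in WT mice, where 2-32M had 2464 and the others 1785 to 1892. Cacng1 had 0.787 in WT mice, where 2-3M had 8005 and the others 5708 to 6134, all below the D257A mice. Mouse 1-13M also had the lowest summed scaled signal of the 8 skeletal muscle markers, 321330, where D257A mice had 382310 to 404470 and WT mice up to 432100. Its array had the smallest scale factor as well, 3.885, against 4.31 to 5.35 in the other mice. The part of the scaling in this low sum was not tested.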

How the results depend on the processing

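Sln was called in all 22 alternatives, with log2 fold changes of 3.04 to 3.33 and adjusted p of 9.66e-07 to 0.0232. Its probe set was the only member called higher except with arrays centred on their median, where 2 were (Ryr1 the other), and 2 were called lower with array weights (Pln 1450952_at, -1.06, adjusted p = 0.0165, and Jph2 1421453_at, -0.72, 0.0229) and without WT mouse 1-13M; leaving out a mouse gave 0 to 2 lower. The 819 higher and 843 lower calls over all probe sets became 1599 and 418 with arrays centred on their median (79.3% higher, against 49.3%), 356 and 856 without scaling (29.4% higher), 1858 and 2110 with array weights, 540 and 493 by the methods' t-test on log2 signals, 528 and 466 on linear signals, 291 and 271 with mice blocked by the first digit of their number, 541 higher without a filter and 515 higher without a variance trend. Leaving out a mouse gave 449 to 1648 higher and 401 to 1780 lower, the most without 1-13M. The cause of these differences was not tested.

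Signs turned only for genes that were not called. Casq1 was -0.048 with quantile normalization, -0.035 without scaling, -0.14 with array weights, -0.052 by the t-test on linear signals, -0.17 in mice numbered 2 and with the digit as a block, and -0.25 to 0.14 with a mouse left out. Pln 1423359_at was -0.020 without scaling, -0.19 with array weights, -0.087 by the linear t-test, -0.29 in mice numbered 2 and with the block, and -0.31 to 0.23 with a mouse left out. Pvalb was -0.0065 with quantile normalization, -0.029 without scaling and -0.00074 to 0.084 with a mouse left out. Atp2a1 was -0.0055 without scaling. Jph2 was 0.040 with median centring and -0.28 to 0.0063 with a mouse left out. Atp2a2 was 0.12 with median centring, 0.11, 0.13, 0.14 and 0.25 by its other probe sets and -0.13 to 0.078 with a mouse left out; in mice numbered 2 and with the block its probe set 1427250_at was -0.024 and 1427251_at -0.079, and with a mouse left out 1427251_at was -0.016 to 0.29 and 1437797_at -0.027 to 0.26. By other probe sets Pln was 0.055 and Ryr1 -0.30. Of the called list genes, Homer2 (adjusted p = 0.0532) and Csrp3 (0.0779) lost the call with the block, Rcan2 in 5 alternatives (up to 0.0819) and Cacnb1 in 10 (up to 0.309). No paired analysis was possible because no mouse number occurs in both genotypes. Whether the array responds in proportion at the signals of Atp2a1, Pvalb and Ryr1 was not tested.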
